A study of Homo sapiens with 15 samples.

Results

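Ribosome footprints of 10 genes for microfibril and matricellular proteins were followed in 15 libraries of HEK293, an established human embryonic kidney line. The genes were picked by name from the 55773 gene names of the deposited table. All 10 were found there. They are MFAP2, FBN1 and FBN2 of the microfibril, FBLN1, the crosslinking enzyme LOX, the adhesive protein FN1, the cartilage adapter MATN3, and the matricellular proteins SPARC, THBS1 and TNC. MFAP2 and SPARC were put on the list for their values in these same libraries, MFAP2 being near 0 and SPARC high in 2 separate lines. Their values are therefore given as a description, with no test.

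Microfibrils are thin extracellular filaments built mainly of fibrillins, and they carry elastin and store latent growth factors of the TGF-beta family. MFAP2 (MAGP-1) is a small protein bound along them. Matricellular proteins sit in the matrix without bearing load and act on adhesion, growth factor signalling and collagen assembly. Most are best known from mesenchymal tissues, while HEK293 cells grow as an epithelial-like culture with some neuronal transcripts.

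In 2 groups a doxycycline-inducible line expressed Flag/HA-tagged ZC3H7A or Flag/HA-tagged ZC3H7B, related CCCH zinc finger proteins, and their control carried the Flag/HA tag alone. All 9 of these libraries are labelled as doxycycline-treated, and a dose of 1 µg/mL for 24 h is stated for the ZC3H7A and ZC3H7B proteins. The labels describe Flp-In T-REx 293 cells, in which a construct is placed at a prepared site, and 3 independent replicates a group. The fourth group carries the label ZC3H7A/B-DD, with genotype ZC3H7A-KO-shZC3H7B (knockout of ZC3H7A plus an shRNA for ZC3H7B), and its reference is a parental line with genotype Wild-type-shCTR (a control hairpin). Both had been kept in puromycin at 5 µg/mL until shortly before collection, and their frozen pellets were lysed in a buffer with cycloheximide at 100 µg/mL. Whether the knockout is 1 clone, and whether these replicates are separate cultures, is not stated. The p-values of this set thus reflect a spread that may be technical. Since every construct sat in a line of its own, a difference between lines and a response to the protein cannot be told apart. The Flag/HA set and the parental set differ in lysis, kit and laboratory, and each was compared only within itself.

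Levels are the deposited read numbers scaled by library, called normalized counts here. Libraries held 24703005 to 25922138 assigned reads with ZC3H7A, 22661812 to 25939425 with ZC3H7B, 28261810 to 29515572 in the Flag/HA control, 20777204 to 42680589 under the label ZC3H7A/B-DD and 32955833 to 39064072 in the parental line. ZC3H7A averaged 38044 ± 562 in its overexpressing line and 6547 ± 52.6 in the Flag/HA control, and ZC3H7B 27885 ± 927 in its own line and 2152 ± 71.8 in that control (SD, n = 3 each). Under the label ZC3H7A/B-DD neither target was lower: ZC3H7A averaged 4691 ± 2633 there, against 2005 ± 267 in the parental line, and ZC3H7B 3105 ± 783, against 2469.7 ± 144. Directions from those libraries are therefore tied to their label only. Parental replicate 3 stood apart: chi-square over degrees of freedom, near 1 for counting error alone, was 74.8 and 55.3 between it and replicates 1 and 2, while the other pairs of all groups lay between 1.62 and 22.1. It was the lowest parental library for 9 of the 10 genes. All 8 markers listed for HEK293 cells (NEFL, NEFM, INA, VIM, KRT8, KRT18, PAX2 and LHX1) averaged 10 or more normalized counts in every group, but their levels were not constant. In bulk footprints, fewer cells with a transcript, less RNA per cell and less translation of it cannot be told apart.

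The sequences below are the first 150 bases of 4 of the coding regions, from GENCODE 29 transcripts (GRCh38), 5′ to 3′, with capitals for A or T at the third position of a codon. They are shown because the list was drawn up around MFAP2 and SPARC, and FBN1 and FBN2 form the pair that moved in opposite directions.
MFAP2 (chromosome 1): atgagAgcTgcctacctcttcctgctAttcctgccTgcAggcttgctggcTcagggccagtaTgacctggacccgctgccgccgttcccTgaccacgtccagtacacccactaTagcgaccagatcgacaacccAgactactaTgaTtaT
SPARC (chromosome 5): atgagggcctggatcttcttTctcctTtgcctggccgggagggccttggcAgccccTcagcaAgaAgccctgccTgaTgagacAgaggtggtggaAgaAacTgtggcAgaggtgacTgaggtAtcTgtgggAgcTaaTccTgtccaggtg
FBN1 (chromosome 15): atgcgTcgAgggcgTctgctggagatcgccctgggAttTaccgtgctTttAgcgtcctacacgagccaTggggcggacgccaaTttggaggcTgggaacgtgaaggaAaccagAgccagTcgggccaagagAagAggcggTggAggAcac
FBN2 (chromosome 5): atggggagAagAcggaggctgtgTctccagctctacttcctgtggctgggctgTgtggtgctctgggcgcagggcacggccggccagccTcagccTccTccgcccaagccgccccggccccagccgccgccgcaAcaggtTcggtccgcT
Each stretch encodes the signal peptide region, through which these secreted proteins enter the endoplasmic reticulum. In these 50 codons, 13 end in A or T in MFAP2, 20 in SPARC, 18 in FBN1 and 10 in FBN2. Over whole coding regions the share was lowest in SPARC at 23.5% of 303 codons and highest in FBN1 at 51.5% of 2871 codons. It was 29.7% in MFAP2 (183 codons), 50.4% in FBN2 (2912 codons) and 25% in FBLN1 (721 codons). Among 12855 genes tested in the Flag/HA set that have a coding region, the quartiles of this share were 26.9% and 55.9%, and the median was 40.9%. MFAP2, SPARC, FBLN1, LOX, THBS1 and TNC lie below that median, and FBN1, FBN2, FN1 and MATN3 lie above it. Whether this share goes with the direction of change was not tested.

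Per length, FBN2 was the most densely footprinted of the 10 in all 5 groups. Dividing by coding length gave 7618 ± 254 normalized counts per 1000 codons with ZC3H7A, 7174 ± 383 with ZC3H7B, 9035 ± 93.8 in the Flag/HA control, 7232 ± 191 in the libraries labelled ZC3H7A/B-DD and 9773 ± 641 in the parental line (SD, n = 3 each). In the Flag/HA control the next densities were FBLN1 at 4023 ± 142, MFAP2 at 3259 ± 144 and FN1 at 2512 ± 52.2 per 1000 codons. LOX followed at 1369.6 ± 67.9, FBN1 at 648 ± 25.8 and TNC at 337 ± 6.43. Lowest were SPARC at 173 ± 26.3, THBS1 at 66.4 ± 11.9 and MATN3 at 6.06 ± 5.41. No neighbours in this order of the control overlapped in their 3 libraries. In the parental line MFAP2 came second at 5345 ± 1103, where its range overlapped that of LOX (4170.1 ± 367). LOX overlapped FBLN1 (3494 ± 491) in turn, and FBLN1 and FN1 (3299.8 ± 288) overlapped as well. The order was another in the libraries labelled ZC3H7A/B-DD, where SPARC came second at 5706 ± 249.9 and MFAP2 ninth at 26.6 ± 15.5 per 1000 codons.

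**Figure D1:**
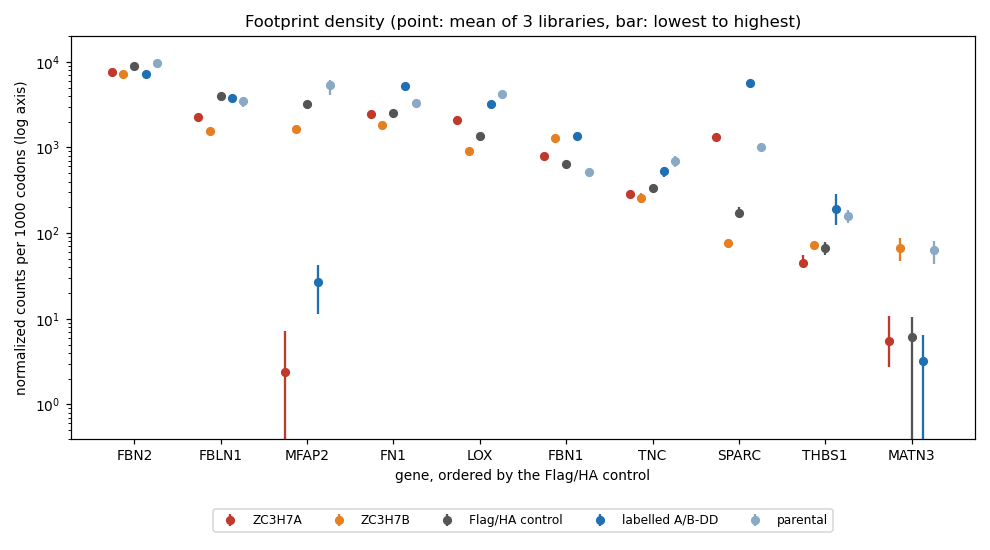
Footprint density of each gene, in normalized counts per 1000 codons on a log axis, with the mean of 3 libraries as a point and a bar from the lowest to the highest library (bars that leave the axis at the bottom reach 0). FBN2 is highest in every group, and MFAP2 drops to 2.38 with ZC3H7A and 26.6 in the libraries labelled ZC3H7A/B-DD.

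MFAP2 (ENSG00000117122.13; GRCh38 chromosome 1, 16974502 to 16980835) was all but missing from 2 of the 5 groups. With ZC3H7A it had 0, 0 and 1.30 normalized counts, against 620.3, 568 and 601 in the Flag/HA control. That is 1 read over 3 libraries, against 1443 reads, and the control level was 1329 times higher with a 95% exact counting interval of 238 to 52511. The libraries labelled ZC3H7A/B-DD had 7.78, 4.73 and 2.10 normalized counts, against 1071, 1117 and 747 in the parental libraries. Here 15 reads stood against 3344, so the parental level was 190.1 times higher (95% counting interval 115 to 340.1). With ZC3H7B the loss was partial: MFAP2 had 312, 291 and 290.4, against the same control values. This is 0.499 of the control level (counting interval 0.453 to 0.549) and a log2 change of -1.0 (SE 0.26). That SE comes from the shared fit of the Flag/HA libraries and so carries the spread of the near-empty ZC3H7A libraries. The SD of log2(normalized count + 1) was 0.695 with ZC3H7A, 0.058 with ZC3H7B and 0.064 in the control. In these 3 comparisons every library of the first-named group lay below every library of its reference. Counting intervals cover counting error only. The epithelial keratin KRT8, one of the HEK293 markers, was lower in the same lines: it averaged 330.2 ± 33.7 with ZC3H7A, 628 ± 52.1 with ZC3H7B and 921 ± 26.8 in the Flag/HA control. KRT8 averaged 209 ± 35.9 in the libraries labelled ZC3H7A/B-DD, against 1098 ± 292 in the parental line. KRT18 averaged 1386 ± 112 with ZC3H7A and 1441 ± 49.6 with ZC3H7B, against 1322 ± 57.2 in their control. It averaged 590.5 ± 44.7 in the libraries labelled ZC3H7A/B-DD, against 1125 ± 216 in the parental line. INA went the other way, at 1901 ± 29.3 with ZC3H7A, 2490 ± 145 with ZC3H7B and 844 ± 4.99 in the Flag/HA control. It averaged 3041 ± 134 under the label ZC3H7A/B-DD, against 1758 ± 155 in the parental line. By group means VIM was also higher in all 3 lines, while KRT18 and PAX2 went both ways. LHX1 had lower means, and NEFL and NEFM higher means, with ZC3H7A and with ZC3H7B than in the Flag/HA control. In the other set the means of these genes differed by less than their SDs. Under the label ZC3H7A/B-DD LHX1 averaged 70.0 ± 18.5, NEFL 294.0 ± 46.7 and NEFM 22.0 ± 3.24. The parental line had 71.5 ± 13.1, 294.5 ± 23.4 and 22.2 ± 1.86. The summed level of the 8 markers, most of it VIM, was 27206 to 29315 with ZC3H7A and 26736 to 29734 with ZC3H7B. In the Flag/HA control it was 20729 to 21924. The sum was 43186 to 48042 in the libraries labelled ZC3H7A/B-DD, against 22842 to 33015 in the parental line. None of the 8 was at 0 in any group, and their part in the MFAP2 values was not tested.

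FBN1 (chromosome 15, 48408306 to 48645849) and FBN2 (chromosome 5, 128257909 to 128659185) encode the large fibrillins that form the microfibril backbone, FBN2 being the form best known from developing tissue. FBN1 rose and FBN2 fell in all 3 lines set against a control. FBN1 stood at 2359, 2336 and 2142 with ZC3H7A, against 1930.5, 1866 and 1783 in the Flag/HA control (log2 change 0.29, SE 0.05, limma adjusted p = 6.30e-05). With ZC3H7B it stood at 3854, 3675 and 3439.5, all above every ZC3H7A and control library (0.97, SE 0.05, limma adjusted p = 4.82e-13). Libraries labelled ZC3H7A/B-DD reached 4266, 3587 and 3909, against 1573, 1537 and 1322 in the parental line (1.41, SE 0.10, limma adjusted p = 4.55e-05). The FBN1 groups did not overlap in any of these comparisons.

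FBN2 changed less in size. It had 22949, 22127 and 21472 normalized counts with ZC3H7A, against 26605, 26256 and 26066 in the Flag/HA control (log2 change -0.25, SE 0.05, limma adjusted p = 8.10e-05). ZC3H7B libraries had 21363, 21689 and 19616 (-0.33, SE 0.05, limma adjusted p = 1.76e-06). Libraries labelled ZC3H7A/B-DD had 21319, 20423 and 21440.1, against 29571, 29500.2 and 26302 in the parental line (-0.43, SE 0.10, limma adjusted p = 0.0152). These 3 pairs of groups did not overlap either, but the last call was lost without replicate 3 of the libraries labelled ZC3H7A/B-DD (limma adjusted p = 0.0518) and without parental replicate 1 (0.0667) or 2 (0.0906). The ZC3H7A and ZC3H7B comparisons share their 3 control libraries.

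Taken per codon, FBN1 made up 9.44%, 9.67% and 9.19% of fibrillin footprints (FBN1 plus FBN2) with ZC3H7A and 15.5%, 14.7% and 15.1% with ZC3H7B. The share was 6.86%, 6.72% and 6.49% in the Flag/HA control. It was 16.9%, 15.1% and 15.6% in the libraries labelled ZC3H7A/B-DD, against 5.12%, 5.02% and 4.85% in the parental line. Each of the 3 lines lay wholly above its control, and FBN2 remained the larger part in all 15 libraries. This ratio was chosen after the values were seen and is given without a test.

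**Figure D2:**
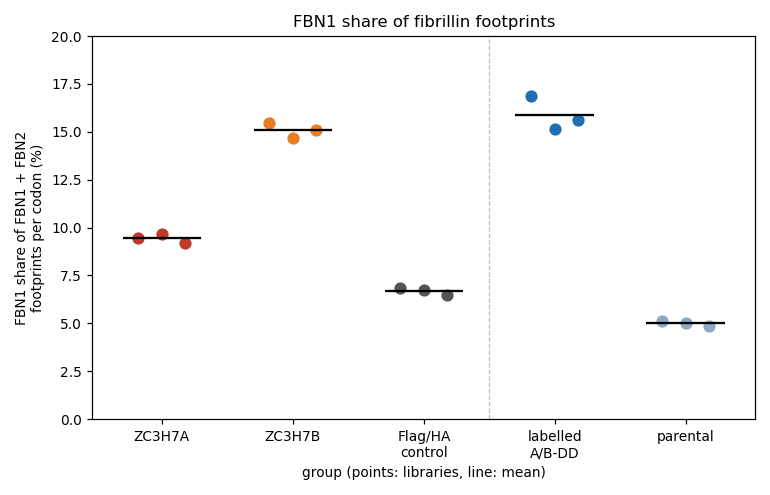
FBN1 as a percentage of FBN1 plus FBN2 footprints per codon, with 1 point per library and the group mean as a line; the dashed line parts the 2 library sets. The ZC3H7A libraries lie at 9.19% to 9.67% and the ZC3H7B libraries at 14.7% to 15.5%, above the Flag/HA control at 6.49% to 6.86%.

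FBLN1 (chromosome 22, 45502238 to 45601135) encodes fibulin 1, a calcium-binding adapter of elastic fibres and basement membranes. FBLN1 had 1751, 1653 and 1504 normalized counts with ZC3H7A, against 2955, 2783 and 2964 in the Flag/HA control (log2 change -0.83, SE 0.06, limma adjusted p = 1.78e-10). With ZC3H7B it had 1163, 1203 and 1014, below all libraries of both other Flag/HA groups (-1.37, SE 0.06, limma adjusted p = 3.04e-14). FBLN1 thus fell in both overexpressing lines. In the libraries labelled ZC3H7A/B-DD it had 2633, 2785 and 2822, against 2707, 2739.9 and 2111 in the parental line, and the groups overlapped (0.13, SE 0.11, limma adjusted p = 0.414).

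LOX (chromosome 5, 122063195 to 122078360) encodes lysyl oxidase, which crosslinks collagen and elastin. Its coding exons overlap an antisense exon of SRFBP1, and strand-specific counting is not given in the sources used here. LOX went opposite ways in the overexpressing lines. It had 769.9, 925 and 916 normalized counts with ZC3H7A, against 543, 571 and 599.6 in the Flag/HA control (log2 change 0.60, SE 0.08, limma adjusted p = 1.19e-06). ZC3H7B libraries had 371, 405 and 368, all below the control (-0.58, SE 0.08, limma adjusted p = 2.28e-06). In the libraries labelled ZC3H7A/B-DD LOX had 1294, 1399 and 1329, against 1818, 1836 and 1562 in the parental line (-0.37, SE 0.09, limma adjusted p = 0.0193). The groups did not overlap in any of these comparisons. The last call was lost without replicate 1 (limma adjusted p = 0.0575) or 3 (0.0689) of the libraries labelled ZC3H7A/B-DD and without parental replicate 1 (0.0736) or 2 (0.101).

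FN1 (chromosome 2, 215360440 to 215436172) encodes fibronectin, which integrins bind and which guides the deposition of fibrillin and collagen. With ZC3H7A, FN1 had 6372, 6252 and 5804 normalized counts, against 6365, 6195 and 6111 in the Flag/HA control, and the groups overlapped (log2 change -0.02, SE 0.05, limma adjusted p = 0.746). It fell with ZC3H7B, to 4619, 4719 and 4280.0 (-0.46, SE 0.05, limma adjusted p = 2.30e-08). It rose in the libraries labelled ZC3H7A/B-DD, which had 13087, 12542 and 13319, against 8564, 8605 and 7351 in the parental line (0.67, SE 0.10, limma adjusted p = 0.00157).

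MATN3 (chromosome 2, 19992111 to 20012694), the cartilage adapter matrilin 3, was rare in every group. It had 22.8, 32.2 and 42.5 normalized counts with ZC3H7B, against 5.06, 0 and 3.77 in the Flag/HA control. Those are 68 and 7 reads, a ratio of 11.3 with a 95% counting interval of 5.19 to 29.1. With ZC3H7A it stood at 1.34, 1.40 and 5.22, overlapping the control. Under the label ZC3H7A/B-DD it stood at 1.56, 0 and 3.14, against 32.4, 39.1 and 21.3 in the parental line, or 5 and 106 reads. The parental level was 18.1 times higher (counting interval 7.51 to 56.8). MATN3 passed the filter on low values only through the ZC3H7B libraries in the one set and through the parental libraries in the other, so no p is given for it.

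SPARC (chromosome 5, 151661096 to 151687165) encodes osteonectin, a collagen-binding matricellular protein. SPARC had 419, 411 and 383 normalized counts with ZC3H7A, against 49.4, 46.7 and 61.6 in the Flag/HA control. The ZC3H7A level was 7.71 times that of the control (95% counting interval 6.39 to 9.35), a log2 change of 2.93 (SE 0.18). In the libraries labelled ZC3H7A/B-DD it had 1686, 1684 and 1816, against 310.0, 327 and 281 in the parental line. That is 5.62 times the parental level (counting interval 5.26 to 6.01) and a log2 change of 2.49 (SE 0.10). SPARC was thus high in the same 2 lines in which MFAP2 was near 0. With ZC3H7B it lay on the other side of the control, at 24.3, 22.8 and 22.0, or 0.439 of the control level (counting interval 0.308 to 0.616; log2 change -1.15, SE 0.18). No pair of groups overlapped. Of 10 fibroblast markers, none was at 0 throughout a group here except FAP with ZC3H7B. Their summed level was 299 to 317 with ZC3H7A and 227 to 255 with ZC3H7B, against 182 to 222 in the Flag/HA control. It was 459.7 to 581 in the libraries labelled ZC3H7A/B-DD, against 689.6 to 869.6 in the parental line. Single markers went both ways: COL3A1 averaged 50.6 and LUM 2.72 with ZC3H7A, against 12.0 and 23.8 in the Flag/HA control. Of the 10 fibroblast markers, 4 averaged 10 or more normalized counts with ZC3H7A and 3 with ZC3H7B, against 5 in their control. In either group of the other set 6 did so. Their part in the SPARC values was not tested.

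THBS1 (chromosome 15, 39581079 to 39599466), thrombospondin 1, activates latent TGF-beta and inhibits angiogenesis. Antisense exons of FSIP1 overlap its coding exons. THBS1 had 64.3, 47.5 and 47.0 normalized counts with ZC3H7A, against 65.8, 74.2 and 93.0 in the Flag/HA control (log2 change -0.55, SE 0.20, limma adjusted p = 0.0233). The call was lost without ZC3H7A replicate 2 (limma adjusted p = 0.0727) or 3 (0.0776) and without control replicate 3 (0.135). With ZC3H7B it had 83.6, 81.8 and 89.5, inside the control range (0.14, SE 0.20, limma adjusted p = 0.576). Libraries labelled ZC3H7A/B-DD had 145, 336 and 191, against 153, 219.8 and 189 in the parental line, with the highest and the lowest value both under that label (0.18, SE 0.28, limma adjusted p = 0.666).

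TNC (chromosome 9, 115019578 to 115118257), tenascin C, modulates adhesion to fibronectin. Antisense exons of DEC1 overlap its coding exons. With ZC3H7A it had 647, 618 and 601 normalized counts, against 744, 756 and 728 in the Flag/HA control (log2 change -0.26, SE 0.08, limma adjusted p = 0.0107). ZC3H7B libraries had 654, 559 and 500.2 (-0.39, SE 0.08, limma adjusted p = 0.000362). TNC thus fell in both overexpressing lines without overlap with the control. Libraries labelled ZC3H7A/B-DD had 992, 1259 and 1302, against 1609, 1746 and 1292 in the parental line, where the lowest parental library, replicate 3, lay among them (-0.39, SE 0.14, limma adjusted p = 0.0748). Without that replicate the change was -0.51 and was called (limma adjusted p = 0.0110), and DESeq2 also called it on all libraries (adjusted p = 0.0387).

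**Figure D3:**
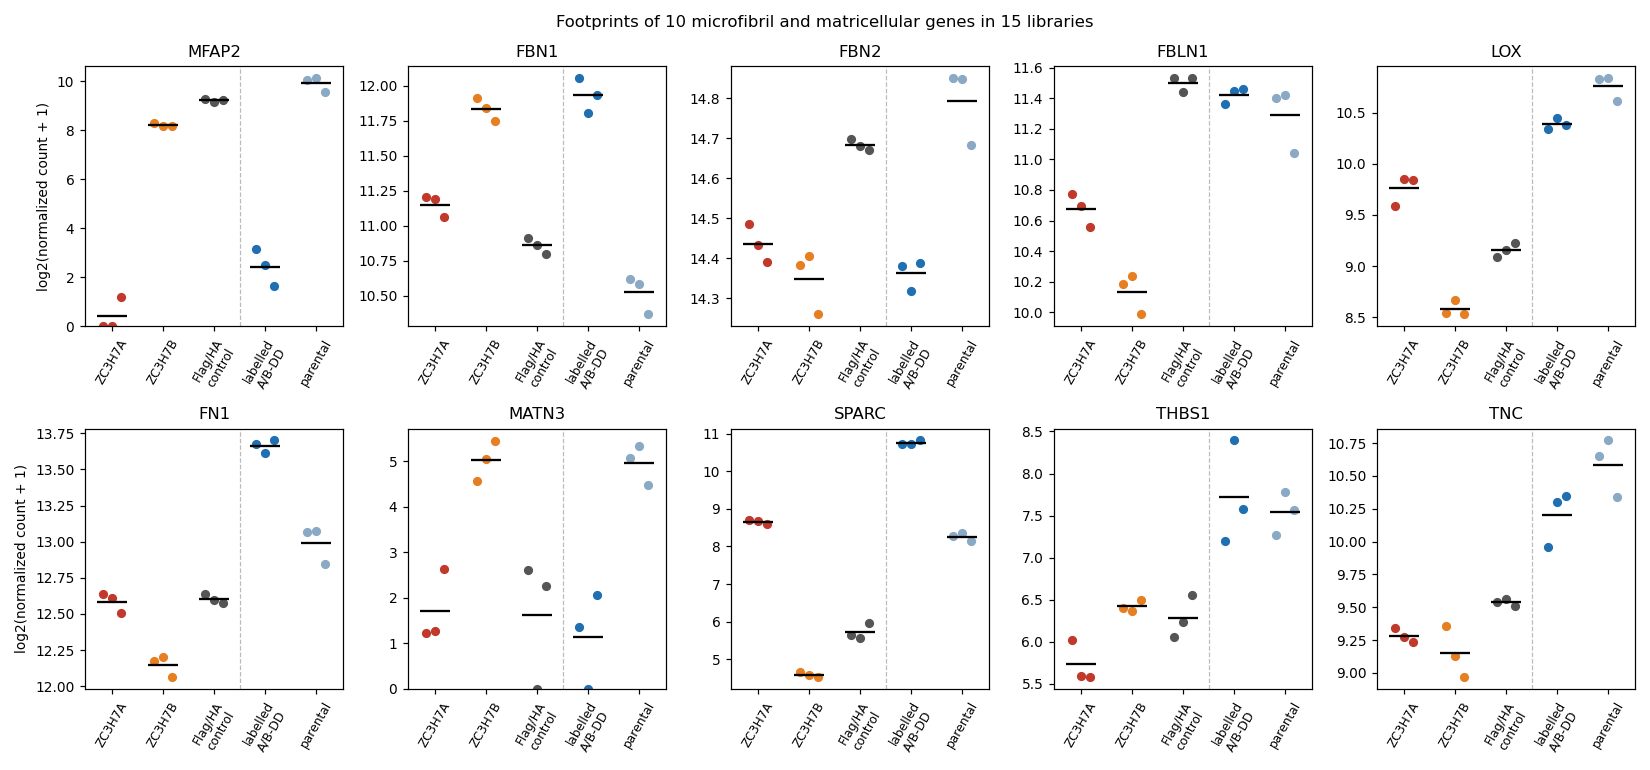
Level of each gene in all 15 libraries as log2(normalized count + 1), with 1 point per library and the group mean as a line; vertical scales differ between panels, and the dashed line parts the 2 library sets. MFAP2 is near 0 with ZC3H7A and low in the libraries labelled ZC3H7A/B-DD, in both of which SPARC is above its control.

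Across many genes these comparisons gave many calls, against which the members are set. MFAP2 and SPARC are left out of the counts, and so is MATN3, since it entered each fit through 1 group alone. Of the other 7 genes 6 passed the limma test with ZC3H7A, 2 higher and 4 lower, where 57.5% of 15599 genes passed (29.2% higher, 28.2% lower) and 63.9% had groups that did not overlap. With ZC3H7B 6 passed, 1 higher and 5 lower, where 54.3% of genes passed (28.9% higher, 25.4% lower) and 61.1% did not overlap. Under the label ZC3H7A/B-DD 4 passed, 2 higher and 2 lower, where 24.5% of 17092 genes passed (11% higher, 13.5% lower) and 40.8% did not overlap. Those 4 were 2 without its replicate 3 and 2 without parental replicate 1 or 2, with no gene lower. The genes were picked with results of these comparisons known, so nothing is read from their share of calls. All 10 passed the filter of 10 normalized counts in at least 3 libraries in both sets.

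**Figure D4:**
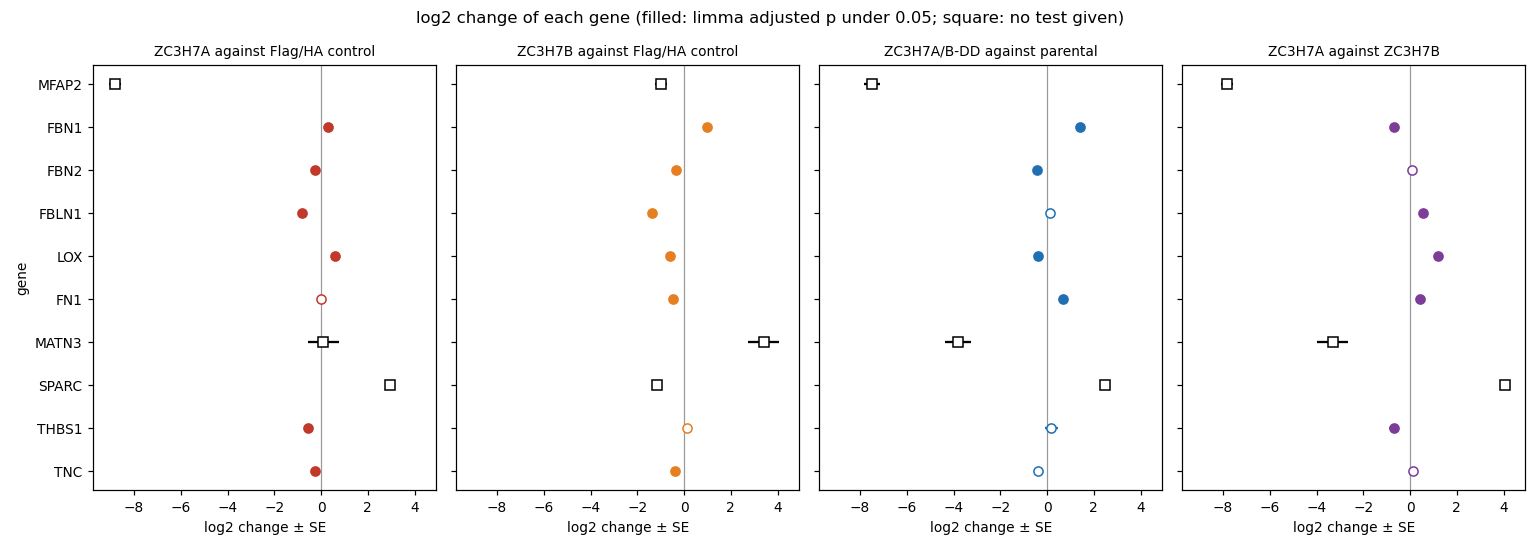
Log2 change of each gene with its SE in the 4 comparisons, on 1 common scale. Filled circles passed the limma test at an adjusted p of 0.05, open circles did not, and for the open squares of MFAP2, SPARC and MATN3 no test is given. FBN1 lies above 0 and FBN2 below 0 in the 3 panels with a control.

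Set directly against each other, the ZC3H7A and ZC3H7B lines differed in 5 of these 7 genes. This contrast tests whether the 2 overexpression changes differ, since the control is common to both. LOX was higher with ZC3H7A than with ZC3H7B (log2 change 1.18, SE 0.08, limma adjusted p = 5.47e-11), as were FBLN1 (0.54, SE 0.06, limma adjusted p = 3.74e-07) and FN1 (0.44, SE 0.05, limma adjusted p = 8.90e-08). FBN1 was lower with ZC3H7A than with ZC3H7B (-0.68, SE 0.05, limma adjusted p = 4.45e-10), and so was THBS1 (-0.69, SE 0.20, limma adjusted p = 0.00882). FBN2 (0.09, SE 0.05, limma adjusted p = 0.152) and TNC (0.13, SE 0.08, limma adjusted p = 0.237) did not pass, and TNC did without ZC3H7B replicate 1 (0.23, limma adjusted p = 0.0310). The 5 that passed were 3 higher and 2 lower, where 36.6% of 15599 genes passed (18.4% higher, 18.2% lower) and 43.7% did not overlap. SPARC was 17.6 times higher with ZC3H7A (95% counting interval 13.1 to 24.0). The ZC3H7B level of MFAP2 was 663 times the ZC3H7A level (interval 119 to 26226).

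Other genes of the elastic fibre and microfibril pathway, from a list of 29 with the members left out, changed in both directions. With ZC3H7A 6 of 24 tested rose and 9 fell, and the median log2 change was 0.13, against 0.02 over all genes, of which 29.2% rose and 28.2% fell. FBLN5, which organises elastin on microfibrils, averaged 815 ± 26.0 with ZC3H7A and 246 ± 34.7 in the Flag/HA control (log2 change 1.73). EMILIN3, of a family of elastic fibre glycoproteins, rose (1.04), as did THSD4, which promotes fibrillin assembly (0.29). EMILIN2 fell to 55.6 ± 4.16 with ZC3H7A, against 174 ± 7.01 in that control (-1.63). The oxidase LOXL4 and the latent TGF-beta binding protein LTBP4 fell as well (-1.44 and -0.50). With ZC3H7B 4 of the 24 rose and 10 fell, with a median of -0.13, against 0.04 over all genes, of which 28.9% rose and 25.4% fell. FBLN5 (0.46), EMILIN3 (0.63) and the protease ADAMTS17 (0.35) rose. The ADAMTS17 libraries overlapped the control, and its call was lost without ZC3H7B replicate 2 (limma adjusted p = 0.0869) or 3 (0.0884) and without control replicate 2 (0.125). LTBP1, which ties latent TGF-beta to microfibrils, fell (-0.48), with 2969 ± 149 in ZC3H7B libraries and 4153 ± 176 in control libraries. EFEMP1 (fibulin 3), LOXL4 and LTBP4 fell too (-0.64, -1.77 and -0.37), and EFEMP1 fell with ZC3H7A as well (-0.40). All of these passed the limma test at adjusted p-values of 0.0179 or less. EMILIN2, lower with ZC3H7A, was called higher with ZC3H7B (0.39, limma adjusted p = 0.0239). That call was lost without ZC3H7B replicate 1 (limma adjusted p = 0.0563) or 2 (0.110) and without control replicate 1 (0.0528) or 3 (0.0818).

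Under the label ZC3H7A/B-DD none of the 24 genes of this list tested in that set, 23 of them tested in both sets, rose by the limma test and 6 fell. Their median was -0.13, against 0.02 over all genes, of which 11% rose and 13.5% fell. LTBP2, a fibrillin-binding protein, averaged 15.7 ± 5.51 there and 159 ± 19.9 in the parental line (log2 change -3.31, limma adjusted p = 0.000109). LTBP4 (-0.95) and EFEMP1 (-0.68) fell as well, EFEMP1 not without parental replicate 2 (limma adjusted p = 0.0560). The count of 6 moved to 11 without parental replicate 3 and to 2 without parental replicate 2. It was 3 without parental replicate 1 and 3 without replicate 1 or replicate 3 of the libraries labelled ZC3H7A/B-DD, and DESeq2 called 1 gene higher.

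Other matricellular and adapter genes, from a list of 34 with 19 tested, changed in both directions in the overexpressing lines. With ZC3H7A 3 rose and 10 fell, with a median log2 change of -0.46, and with ZC3H7B 3 rose and 11 fell, with a median of -0.36. Over all genes the medians were 0.02 and 0.04, with 29.2% higher and 28.2% lower for ZC3H7A and 28.9% higher and 25.4% lower for ZC3H7B. SMOC1, a SPARC-related calcium-binding protein, averaged 1310.5 ± 52.2 with ZC3H7A, 1567 ± 18.5 with ZC3H7B and 2699 ± 77.0 in the Flag/HA control (log2 changes -1.04 and -0.78). Hemicentin 1 (HMCN1), follistatin-like 1 (FSTL1) and thrombospondin 4 (THBS4) fell in both lines. Their log2 changes were -1.62, -0.36 and -0.46 with ZC3H7A and -0.36, -0.32 and -0.61 with ZC3H7B. The ZC3H7B call of HMCN1 (limma adjusted p = 0.0214) was lost without ZC3H7B replicate 2 (0.0976) or 3 (0.0813) and without control replicate 1 (0.0858). SPOCK1, a further relative of SPARC, averaged 371 ± 37.5 with ZC3H7A, 122 ± 27.5 with ZC3H7B and 244 ± 5.52 in that control, and so rose with ZC3H7A (0.60) and fell with ZC3H7B (-1.02). ECM2 rose in both lines from few reads, at 18.1 ± 6.24 with ZC3H7A, 28.8 ± 7.13 with ZC3H7B and 4.56 ± 0.841 in the control (1.74 and 2.41). Periostin (POSTN) rose in both (1.61 and 1.45), at means of 13.0 with ZC3H7A, 11.8 with ZC3H7B and 4.07 in the control. Its ZC3H7A call was lost with no filter on low values (limma adjusted p = 0.0560), without ZC3H7A replicate 3 (0.0643) and without control replicate 1 (0.0883). Its ZC3H7B call was lost with no filter (0.0996), by DESeq2 (adjusted p = 0.0782), without ZC3H7B replicate 2 (0.134) and without control replicate 1 (0.155). WISP3 rose with ZC3H7B (1.51), at 32.0 there and 10.7 in the control. No control library of ECM2 or POSTN reached 10 (highest 5.06 and 7.18), so both passed the filter on low values only through the overexpressing lines. Both are among the 3 rises counted in each line, and nothing is read from their calls. Apart from HMCN1 with ZC3H7B, the other genes named here passed the limma test at adjusted p-values of 0.00209 or less.

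Of the 19 genes of this list tested in the parental set, 16 of them tested in both sets, 5 rose and 2 fell in the libraries labelled ZC3H7A/B-DD. Their median was -0.05, against 0.02 over all genes, of which 11% rose and 13.5% fell. THBS4 (0.60), FSTL1 (0.49) and ECM1 (1.07) rose, and NOV, a CCN family protein, and HMCN1 fell (-0.78 and -0.56). THBS4 averaged 2106 ± 28.1 there and 1394.5 ± 125 in the parental line. These 5 genes passed the limma test at adjusted p-values of 0.0159 or less. The count of rises was 3 without replicate 2 or replicate 3 of the libraries labelled ZC3H7A/B-DD and 2 without parental replicate 2, where no fall was called (limma adjusted p = 0.0575 for NOV and 0.0561 for HMCN1). ECM1 was among the calls lost without those replicates 2 (limma adjusted p = 0.0511) and 3 (0.0536) and without parental replicate 2 (0.0619). Without parental replicate 3, 4 falls were called.

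**Figure D5:**
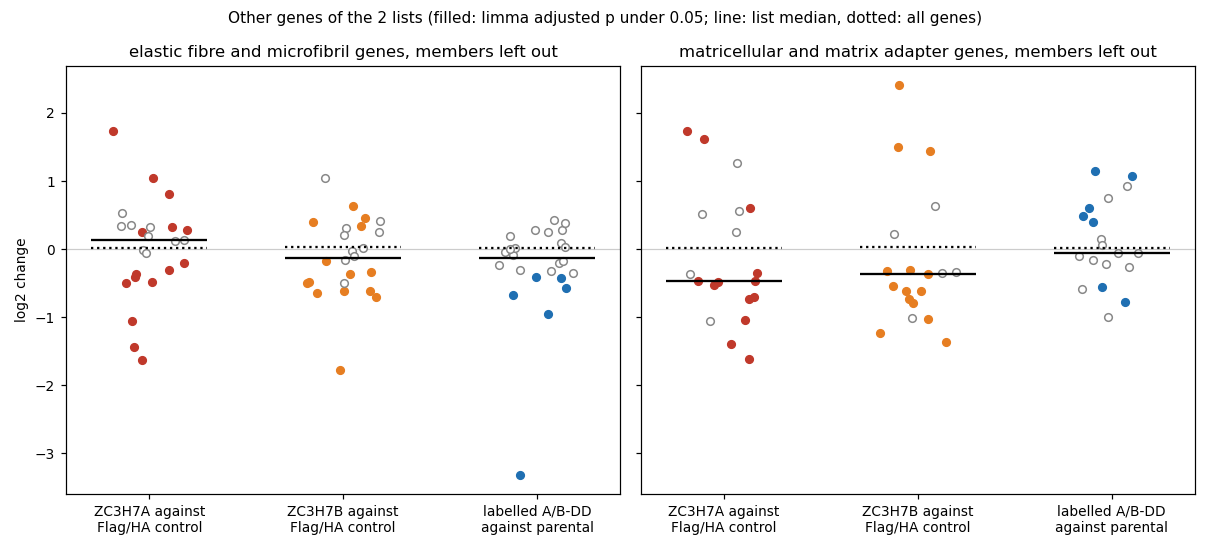
Log2 change of the other tested genes of the 2 lists (24 and 19) in the 3 comparisons with a control, 1 point per gene, filled where the limma adjusted p was under 0.05. The solid line is the list's median and the dotted line that of all genes tested. The matricellular list lies lowest with ZC3H7A, at a median of -0.46.

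The genes whose pattern over the 15 libraries was most like that of MFAP2 were CDH3, OAS3 and PABPC4L, among 14206 genes compared. Likeness was the root mean square difference of log2(normalized count + 1) after centring each gene within its library set. It was 1.40 for CDH3, 1.75 for OAS3 and 1.94 for PABPC4L, where the root mean square of MFAP2 itself was 3.88. The P-cadherin gene CDH3 averaged 18.9 normalized counts with ZC3H7A, 419 with ZC3H7B and 648 in the Flag/HA control. It averaged 8.01 in the libraries labelled ZC3H7A/B-DD and 1149.7 in the parental line. OAS3 averaged 1.78 with ZC3H7A, 45.1 with ZC3H7B and 83.1 in the Flag/HA control, and 10.6 under the label ZC3H7A/B-DD, against 229 in the parental line. Unlike MFAP2, PABPC4L was higher with ZC3H7B (295) than in the Flag/HA control (54.4). It averaged 0.435 with ZC3H7A, 0.868 under the label ZC3H7A/B-DD and only 13.2 in the parental line. Most like SPARC were RPL22L1 at 0.490, GSTM2 at 0.676 and the targeted gene ZC3H7A at 0.692, where SPARC itself had 1.55. RPL22L1, a ribosomal protein paralog, averaged 8919 with ZC3H7A, 853 with ZC3H7B and 1280.3 in the Flag/HA control, and 1345 in the libraries labelled ZC3H7A/B-DD, against 581 in the parental line. GSTM2 averaged 222 with ZC3H7A, 9.13 with ZC3H7B and 74.1 in the Flag/HA control. In the other set it averaged 283 under the label ZC3H7A/B-DD and 84.6 in the parental line. The ZC3H7A gene averaged 38044 in its overexpressing line, whose construct encodes it, and 6547 in the Flag/HA control. That part of its likeness was set by the design. Under the label ZC3H7A/B-DD the gene averaged 4691 ± 2633, against 2005 ± 267 in the parental line, and the groups overlapped. These are descriptions over libraries that share groups and protocols.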

How the data were processed

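Footprint libraries of 15 samples in 5 groups of 3 were used. The deposited table holds a signal per gene that the authors had normalized. Cutadapt, Bowtie, STAR, HTSeq, DESeq2, hg38 and hg19 appear in the submitters' processing notes, without roles, and the build aligned to is not given in the sources used here. Each value was a whole multiple of 1 step per library (100% of values, within 0.001 reads or a relative tolerance of 1e-06), so whole reads were recovered. On them edgeR 4.0.16 (quasi-likelihood) called 9059, 8494, 5856 and 4132 genes for ZC3H7A, ZC3H7B, ZC3H7A against ZC3H7B and ZC3H7A/B-DD.

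The main test was limma 3.58.1 (eBayes with trend, R 4.3.3) on log2(value + 1), which understates changes of low genes. Genes at 10 or more in at least 3 libraries entered, with Benjamini-Hochberg adjustment over all of them, called at 0.05. One fit took the 9 Flag/HA libraries and another the remaining 6. Coding regions are the longest per gene in GENCODE 29. MATN3 was left out of the counts of called members after its values were seen. Members and lists were chosen with earlier results of these data known. List genes named are up to 3 called per direction, list and comparison, with the smallest p. Likeness names 3 genes each for MFAP2 and SPARC. Alternatives were pseudocount 5, no filter, TMM scaling, edgeR, DESeq2 1.42.0, a replicate block and leaving out each library. The 5 endothelial and blood markers found summed to at most 77.6 normalized counts in any library.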

Additional observations from a re-analysis of the deposited data

How the results depend on the processing

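Of the counts of called genes and members, 181 values under alternatives stayed within 1.5 times the count reported and 11 did not, 10 of them with single libraries left out and 1 under the replicate block. With single libraries left out, those of the libraries labelled ZC3H7A/B-DD ranged from 1895 to 5560 genes called, 2 to 5 members called and 0 to 3 members called lower. The replicate block gave 9169, 8714, 6026 and 2992 genes and 6, 6, 5 and 3 members called, in the order ZC3H7A, ZC3H7B, ZC3H7A against ZC3H7B and ZC3H7A/B-DD. The last lost FBN2 (limma adjusted p = 0.0613), leaving 1 member lower. Replicate numbers showed no clear pairing of the libraries. In the Flag/HA set deviations correlated at -0.03 to 0.04 between same numbers and at -0.056 to 0.038 between different numbers. In the other set they did so at -0.10 to 0.02 and at -0.025 to 0.118. Of 24 library and group pairs, 11 were closest to their own number, with 3 numbers to match. Signs turned for 8 log2 changes that had not passed the test. With single libraries left out, the ZC3H7A change of FN1 ranged from -0.0468 to 0.0206 and that of MATN3 from -0.72 to 0.58. MATN3 was also -0.0304 at pseudocount 5, -0.10 by edgeR and -0.13 by DESeq2. The ZC3H7B change of THSD4 ranged from -0.0186 to 0.0789 (-0.00213 by DESeq2) and that of LTBP2 from -0.15 to 0.00769. Between the 2 overexpressing lines POSTN ranged from -0.0814 to 0.47 and ECM1 from -0.55 to 0.40. For ZC3H7A/B-DD THBS1 ranged from -0.15 to 0.45 and EMILIN2 from -0.14 to 0.0815. The cause was not tested. The log2 change of MFAP2 with ZC3H7A, resting on 1 read, ranged from -10.29 by DESeq2 to -6.80 at pseudocount 5. Depth limits MATN3, at 5 to 7 reads in 3 groups.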
